A study of Mus musculus with 12 samples.

Results

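The transcripts described here come from 59 mouse genes of mitosis, the spindle and the kinetochore, measured by RNA sequencing in 12 cultures of primary hippocampal neurons. They were taken by name from the 48709 genes in the count files, and all 59 were found. The genes fall into 8 classes by function: 10 cyclins, kinases and phosphatases, 9 genes of the checkpoint and anaphase, 11 of the centromere and kinetochore, 11 mitotic kinesins, 5 of spindle assembly, 7 of chromosome structure including condensin, 4 of cytokinesis and 2 transcription factors. The cultures were prepared from hippocampi of E17 CD1 mouse embryos, which the study's methods describe as pooled over several embryos before plating. On day 10 in vitro they received lipid nanoparticles loaded either with a miR-148a-3p mimic (6 cultures) or with a negative control oligonucleotide (6 cultures), and RNA was taken 48 h later, on day 12. The methods add that nanoparticles were given together with ApoE4, the apolipoprotein that helps cells take up lipid particles, in both arms, although the sample labels do not name it. No untreated culture was analysed here, so every value is relative to cultures that carried nanoparticles and the control oligonucleotide.

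A cell enters mitosis when cyclin B and Cdk1 become active, after Cdc25 phosphatases have removed inhibitory phosphates from the kinase. Kinesins and spindle proteins then build the bipolar spindle, condensins and topoisomerase II compact and untangle the chromosomes, and the kinetochore, a protein complex assembled on the centromere, ties each chromosome to spindle microtubules. A checkpoint holds back the anaphase-promoting complex until all kinetochores are attached, after which the sister chromatids part and cytokinesis divides the cell. Transcription of most of these genes is low outside the cycle and peaks in its last stages, under the MuvB complex with B-Myb and FoxM1. Mature neurons do not divide, whereas astrocytes, oligodendrocyte precursors and neural progenitors in a young hippocampal culture can. RNA was taken from whole cultures, so a change in the number of dividing cells and a change in the RNA per cell cannot be told apart.

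Both oligonucleotides are shown because they are what the groups differ in by design, with the seed (bases 2 to 8, which pair with target transcripts) in capitals.
miR-148a-3p mimic: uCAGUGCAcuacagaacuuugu
negative control: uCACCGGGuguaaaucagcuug
The mimic strand has the same 22 bases as the RefSeq entry of mouse miR-148a-3p. Both sequences come from the study's reagent list, and it is assumed that the control listed there for mimics is the one given to the 6 control cultures.

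Each library held 20018234 to 37149112 counted reads, and the difference between the group means did not pass an exact permutation test (two-sided p = 0.515, over all relabellings). Control libraries 1 and 2 were the shallowest and the farthest from the rest of their group, at mean log2 distances of 0.483 and 0.395 against 0.346 to 0.366 for the other controls. After a filter of at least 5 counts in at least 6 libraries, 18847 genes were tested with the quasi-likelihood test of edgeR, and an adjusted p under 0.05 was called. The labels do not say whether the 6 cultures of a group came from separate preparations, so the p-values measure the spread between these cultures, which may be technical.

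All 59 mitotic genes rose in mimic cultures and none fell, where 11.5% of all tested genes were called higher and 10.7% lower. In each of the 59 the lowest mimic library lay above the highest control library, an order that 7.43% of all tested genes showed upwards and 5.83% downwards. The list was drawn up with earlier results of these data known, so these counts are a description and not independent evidence of the direction. The median log2 fold change was 1.03, close to a doubling, against -0.01 over all tested genes. Changes spanned 0.29 (Cdc25b) to 1.34 (Ccnb1), 34 genes at least doubled and 56 rose by at least 1.5 times. The mitotic genes made up 34 of the 140 genes that were called higher with a log2 fold change of at least 1.

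**Figure D1:**
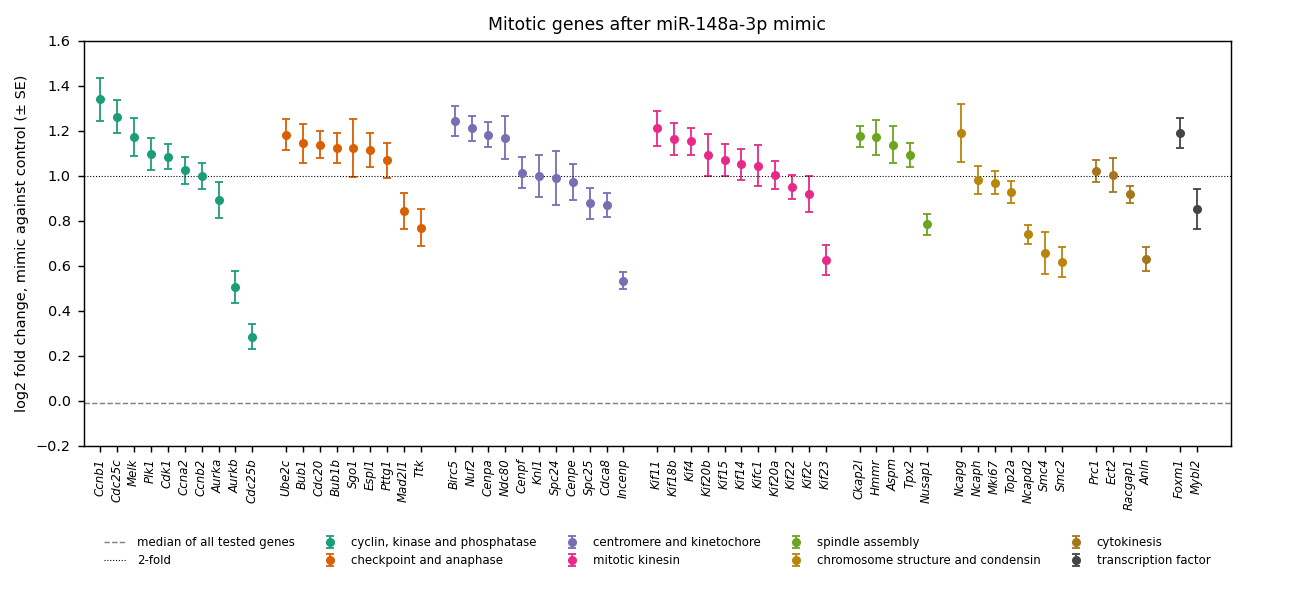
Log2 fold change, mimic against control, of the 59 mitotic genes (y axis), ordered within 8 classes marked by colour (x axis, gene symbols). Points are edgeR estimates and bars ± 1 SE, from 6 control and 6 mimic cultures. The dashed line is the median of all tested genes (-0.01) and the dotted line a 2-fold change, which 34 genes reach; Cdc25b lies lowest at 0.29.

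Levels are given as CPM, counts brought to a common library total after TMM scaling. Summed over the 59 genes, the level was 766.5, 837.9, 822.5, 913.7, 869.7 and 926.1 CPM in control libraries 1 to 6. The same sum was 1707, 1650, 1601, 1629, 1682 and 1713 CPM in mimic libraries 1 to 6. Control cultures thus averaged 856.1 ± 59.8 and mimic cultures 1664 ± 44.6 CPM (SD, n = 6 each), with no overlap between the groups. The gap between groups differed from gene to gene. In 43 of 59 the lowest mimic value was at least 1.5 times the highest control value. The ratio ran from 1.02 for Cdc25b to 2.02 for Nuf2, with a median of 1.67. It was not computed over all tested genes, so these values have no background share beside them. Every gene had at least 38 counts in every library, the lowest being Sgo1 in control 1, so all 59 passed the filter on their control libraries alone.

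**Figure D2:**
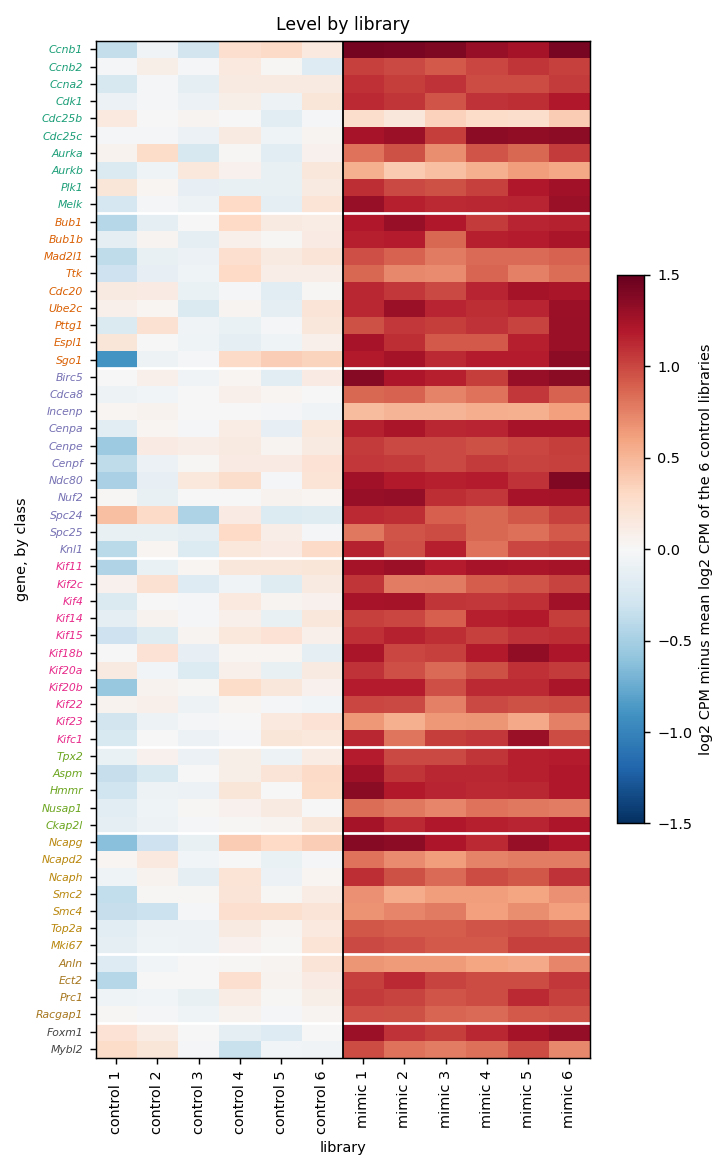
Heat map of the 59 mitotic genes (rows, coloured and divided by class) in the 12 libraries (columns), as log2 CPM minus the mean log2 CPM of the 6 control libraries. The 6 mimic columns are red throughout, palest for Cdc25b, and control 1 is the bluest of the control columns, most of all for Sgo1.

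Promoters of the mitotic genes were read from RefSeq (GRCm38.p6, the build of the files), as windows from 250 bases before to 50 bases after each annotated start. Of the 59 genes 50 had a window, and 2 of these had more than 1 start. The motifs searched on both strands were TTTGAA (the core of the cell cycle homology region, CHR, which the MuvB complex reads), its variant TTTAAA, the NF-Y box CCAAT, and 4 forms of the E2F core, TTTCGCGC, TTTGGCGC, TTTCCCGC and TTTGGCGG. The stretches printed here run from 120 to 3 bases before the start of the 8 genes that were among the most changed of their class and held a TTTGAA in that stretch. Capitals mark TTTGAA and CCAAT, on the other strand read as TTCAAA and ATTGG.
Ube2c: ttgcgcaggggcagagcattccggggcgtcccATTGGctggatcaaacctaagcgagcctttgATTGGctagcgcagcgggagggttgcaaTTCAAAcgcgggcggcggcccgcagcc
Cdc20: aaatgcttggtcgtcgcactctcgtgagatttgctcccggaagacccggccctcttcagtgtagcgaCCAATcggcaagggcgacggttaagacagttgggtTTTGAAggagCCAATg
Kif11: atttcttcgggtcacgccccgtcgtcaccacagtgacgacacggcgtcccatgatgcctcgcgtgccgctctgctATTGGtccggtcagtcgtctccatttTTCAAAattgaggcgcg
Ckap2l: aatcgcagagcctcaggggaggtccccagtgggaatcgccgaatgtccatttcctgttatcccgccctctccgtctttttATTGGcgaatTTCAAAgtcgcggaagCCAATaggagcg
Ncapg: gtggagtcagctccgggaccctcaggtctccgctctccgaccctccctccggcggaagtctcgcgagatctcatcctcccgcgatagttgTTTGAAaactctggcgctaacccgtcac
Mki67: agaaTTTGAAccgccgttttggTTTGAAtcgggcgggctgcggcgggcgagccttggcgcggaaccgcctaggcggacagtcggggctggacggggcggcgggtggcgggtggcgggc
Prc1: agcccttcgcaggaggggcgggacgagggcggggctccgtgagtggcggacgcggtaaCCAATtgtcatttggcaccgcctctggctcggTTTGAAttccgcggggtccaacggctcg
Ect2: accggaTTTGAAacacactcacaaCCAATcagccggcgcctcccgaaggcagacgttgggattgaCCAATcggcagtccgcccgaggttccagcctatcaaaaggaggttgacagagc
The stretches lie at chr2:164769809-164769926 (plus strand), chr4:118437346-118437463 (minus strand), chr19:37376262-37376379 (plus strand), chr2:129297215-129297332 (minus strand), chr5:45669805-45669922 (plus strand), chr7:135716382-135716499 (minus strand), chr7:80294356-80294473 (plus strand) and chr3:27153881-27153998 (minus strand). In Cdc20 and Ckap2l a CCAAT box stands on each side of the CHR core, while Ncapg and Mki67 have no CCAAT in the printed bases.

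TTTGAA stood in the windows of 37 of the 50 mitotic genes (74.0%), against 20.2% of the 27025 genes with a window in the table and 14.5% of the 12830 of them that were tested here. Within 50 bases of the start the shares were 66.0% of the mitotic genes and 5.72% of all genes. CCAAT was found for 36 of the 50 genes (72.0%, against 41.1%), and both motifs for 31 (62.0%, against 7.97%). TTTAAA was held by 11 (22.0%, against 14.9%). All 10 mitotic kinesins with a window and all 4 cytokinesis genes held TTTGAA, as did 4 of 7 cyclins, kinases and phosphatases. Over all windows of the mitotic genes TTTGAA matched 51 times, with a median first base at position 2 (the start itself is position 1), and CCAAT 84 times, with a median of -66. Ect2 and Prc1 each have 2 overlapping windows, and a match in both was counted in each. The E2F letters stood in 5 of 50 mitotic genes (10%, against 2.7%). Among 32 DNA replication genes with a window, 17 (53.1%) held the E2F letters and 5 (15.6%) TTTGAA. By motif, the median log2 fold change was 1.04 for the 37 genes with TTTGAA and 1.07 for the 13 without. A match describes the letters of the window and not a bound factor.

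**Figure D3:**
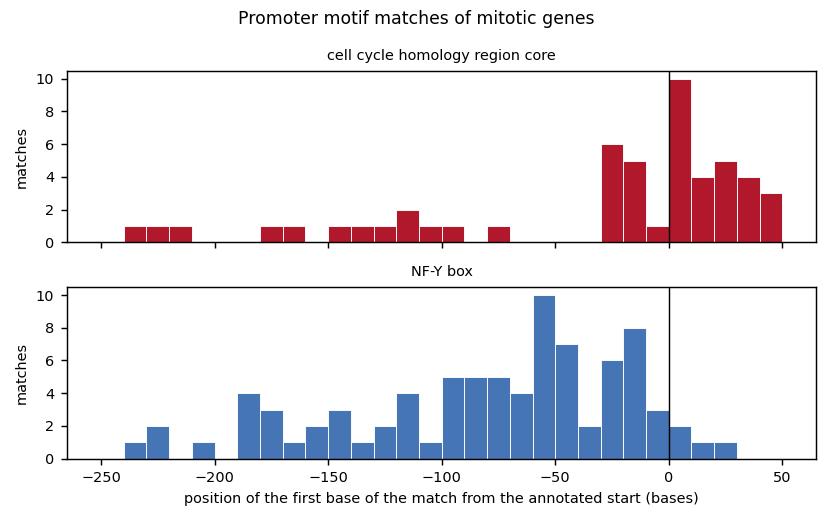
Number of matches (y axis) of the CHR core (upper panel) and of the NF-Y box (lower panel) in the promoter windows of 50 mitotic genes, by position of the first base of the match from the annotated start in bases (x axis, bins of 10). CHR matches cluster around the start, with a median position of 2, and NF-Y box matches lie mostly upstream, with a median of -66.

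The genes of mitotic entry rose together, with Cdc25b and Aurkb well below the others. Their class, 10 cyclins, kinases and phosphatases, had a median log2 fold change of 1.06, and 6 of its members at least doubled. Ccnb1 (chr13:100778650-100786570) encodes cyclin B1, the partner that activates Cdk1 at mitotic entry. Ccnb1 ranged from 2.78 to 4.37 CPM (median 3.71) in control and from 8.46 to 9.66 CPM (median 9.53) in mimic cultures, a log2 fold change of 1.34 ± 0.10 (SE; adjusted p = 2.22e-08). Every mimic library lay above the highest control library. In control cultures Cdc25c lay between 2.56 and 2.97 CPM (median 2.68), against 5.56 to 6.89 CPM (median 6.7) in mimic cultures, and the log2 fold change was 1.26 ± 0.08 (SE; adjusted p = 3.1e-09). This phosphatase, which activates Cdk1, had, with Kif14 and Ndc80, one of the 3 lowest control levels per length of all 59 genes, 0.551 ± 0.0303 CPM per kb of exon (SD, n = 6). Melk is a kinase of the late cell cycle. The level of Melk had a median of 4.93 CPM in control (4.29 to 6.31) and 11.4 CPM in mimic cultures (11.1 to 12.7), a rise of 1.17 ± 0.08 on the log2 scale (SE; adjusted p = 1.91e-08). Cdk1 itself rose by 1.09 ± 0.05 on the log2 scale, and cyclins Ccnb2 and Ccna2 rose by 1.00 ± 0.06 and 1.03 ± 0.06. Plk1 and Aurka, kinases of the centrosome and spindle pole, rose by 1.10 ± 0.07 and 0.89 ± 0.08. Aurkb, the kinase of the chromosomal passenger complex at the centromere, rose by 0.51 ± 0.07. Cdc25b, a phosphatase that acts on Cdk1 at the onset of mitosis, changed least, a gene singled out here after its values were seen. Cdc25b ranged from 8.81 to 11.0 CPM (median 10) in control and from 11.2 to 12.9 CPM (median 12.0) in mimic cultures, a log2 fold change of 0.29 ± 0.06 (SE; adjusted p = 0.00137). Tested against a minimum fold change of 1.2, Cdc25b was not called (adjusted p = 0.966 by edgeR's glmTreat), the only one of the 59 genes to lose its call there. Its groups were apart by the narrowest margin, with a lowest mimic library just above the highest control library.

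Genes of the spindle checkpoint and of the exit from metaphase had a class median of 1.12, and 7 of 9 at least doubled. Ube2c is the ubiquitin-conjugating enzyme of the anaphase-promoting complex. In control cultures Ube2c lay between 6.36 and 8.48 CPM (median 7.59), against 15.9 to 18.1 CPM (median 16.3) in mimic cultures, and the log2 fold change was 1.18 ± 0.07 (SE; adjusted p = 2.58e-09). Bub1 is a checkpoint kinase at the kinetochore. The level of Bub1 had a median of 7.84 CPM in control (5.61 to 9.28) and 17.0 CPM in mimic cultures (15.6 to 18.6), a rise of 1.14 ± 0.09 on the log2 scale (SE; adjusted p = 3.99e-08). Cdc20 switches the anaphase-promoting complex on and is the target that the checkpoint holds. Cdc20 ranged from 10.4 to 12.8 CPM (median 11.6) in control and from 23.0 to 27.5 CPM (median 25.6) in mimic cultures, a log2 fold change of 1.14 ± 0.06 (SE; adjusted p = 1.09e-09). All 6 mimic libraries stood above all 6 control libraries for each of the 3 genes. Checkpoint partners Bub1b (BubR1), Mad2l1 (Mad2) and Ttk (Mps1) rose by 1.12 ± 0.07, 0.84 ± 0.08 and 0.77 ± 0.08. Separase (Espl1), which releases the sister chromatids, and its inhibitor securin (Pttg1) rose by 1.12 ± 0.08 and 1.07 ± 0.08. Sgo1, shugoshin, which guards centromeric cohesin, rose by 1.12 ± 0.13 and had the widest relative spread between control libraries of this class (coefficient of variation 27.5%), from 1.92 CPM in control 1 to 4.62 CPM.

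The 11 genes of the centromere and kinetochore had a median log2 fold change of 1.00, and 5 of them at least doubled. Birc5, survivin, belongs to the chromosomal passenger complex. In control cultures Birc5 lay between 7.49 and 9.2 CPM (median 8.52), against 17.3 to 21.7 CPM (median 20.2) in mimic cultures, and the log2 fold change was 1.24 ± 0.07 (SE; adjusted p = 1.09e-09). Its partners in that complex changed less, Cdca8 (borealin) by 0.87 ± 0.05, the scaffold Incenp by 0.53 ± 0.04 and the kinase Aurkb by 0.51 ± 0.07. Differences between partners were not tested. Nuf2 is a subunit of the Ndc80 complex, which grips the microtubule. The level of Nuf2 had a median of 10 CPM in control (9.14 to 10.2) and 23.3 CPM in mimic cultures (20.6 to 24.7), a rise of 1.21 ± 0.06 on the log2 scale (SE; adjusted p = 2.37e-10). This was the widest relative gap between the groups among the 59 genes. Ndc80 ranged from 2.78 to 4.7 CPM (median 4.1) in control and from 8.29 to 10.2 CPM (median 8.82) in mimic cultures, a log2 fold change of 1.17 ± 0.10 (SE; adjusted p = 1.28e-07). The remaining subunits of the complex rose by 0.99 ± 0.12 (Spc24) and 0.88 ± 0.07 (Spc25). Cenpa is the histone H3 variant that marks the centromere. In control cultures Cenpa lay between 8.33 and 10.4 CPM (median 9.37), against 20.4 to 22.0 CPM (median 21.2) in mimic cultures, and the log2 fold change was 1.18 ± 0.06 (SE; adjusted p = 3.36e-10). Cenpe, a kinetochore motor, rose by 0.97 ± 0.08, Cenpf, a large protein of the outer kinetochore, by 1.01 ± 0.07, and the scaffold Knl1 by 1.00 ± 0.09.

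Mitotic kinesins, the motors that build and run the spindle, had a median of 1.05, and 8 of 11 at least doubled. Kif11 (Eg5) pushes the spindle poles apart. The level of Kif11 had a median of 19.1 CPM in control (13.1 to 20.3) and 42.3 CPM in mimic cultures (40.6 to 43.5), a rise of 1.21 ± 0.08 on the log2 scale (SE; adjusted p = 7.02e-09). Its lowest mimic library was 2.0 times its highest control library. Kif18b works at the plus ends of astral microtubules. Kif18b ranged from 6.62 to 8.46 CPM (median 7.36) in control and from 14.6 to 18.3 CPM (median 16.7) in mimic cultures, a log2 fold change of 1.17 ± 0.07 (SE; adjusted p = 3.85e-09). Kif4 is a chromosome-bound kinesin of the X chromosome (chrX:100625737-100727214). In control cultures Kif4 lay between 9.09 and 11.7 CPM (median 10.7), against 22.1 to 25.3 CPM (median 23.8) in mimic cultures, and the log2 fold change was 1.15 ± 0.06 (SE; adjusted p = 7.94e-10). None of these 3 motors had a mimic library within the control range. Kif14, a kinesin of cytokinesis, had the lowest control level per length of all 59 genes, 0.472 ± 0.0397 CPM per kb (SD, n = 6). The level of Kif14 had a median of 4.91 CPM in control (4.39 to 5.48) and 9.97 CPM in mimic cultures (9.08 to 11.1), a rise of 1.05 ± 0.07 on the log2 scale (SE; adjusted p = 1.06e-08). Kif15, Kif20b, Kifc1, Kif20a, Kif22 and Kif2c rose by between 0.92 (Kif2c) and 1.09 (Kif20b). Kif23, which forms the centralspindlin complex with Racgap1, changed least in the class, by 0.63 ± 0.07, with 11.4 to 16.1 CPM in control and 20.0 to 23.3 CPM in mimic cultures.

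The 5 genes of spindle assembly had a class median of 1.14, the highest of the 8 classes, and 4 of them at least doubled. Ckap2l is a microtubule-binding protein of the spindle of neural progenitors. Ckap2l ranged from 14.6 to 18.2 CPM (median 16.2) in control and from 35.2 to 38.3 CPM (median 36.8) in mimic cultures, a log2 fold change of 1.18 ± 0.05 (SE; adjusted p = 6.81e-11). With Racgap1 it shared the smallest adjusted p among the 59 genes. Hmmr helps focus the spindle poles. In control cultures Hmmr lay between 8.08 and 12.0 CPM (median 9.72), against 21.5 to 25.3 CPM (median 22.3) in mimic cultures, and the log2 fold change was 1.17 ± 0.08 (SE; adjusted p = 7.35e-09). Aspm holds the spindle pole, and its loss causes primary microcephaly. The level of Aspm had a median of 23.1 CPM in control (17.6 to 27.3) and 49.8 CPM in mimic cultures (47.2 to 54.2), a rise of 1.14 ± 0.08 on the log2 scale (SE; adjusted p = 5.38e-08). These 3 genes showed no overlap between groups. Tpx2, which activates Aurora A on the spindle, rose by 1.09 ± 0.05, and Nusap1, a microtubule bundler, by 0.79 ± 0.05.

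The 7 genes of chromosome structure had the lowest class median, 0.93, and held the 3 genes with the highest control level per length. Differences between classes were not tested. Ncapg and Ncaph are subunits of condensin I. Ncapg ranged from 3.74 to 7.49 CPM (median 6.22) in control and from 12.5 to 14.8 CPM (median 13.8) in mimic cultures, a log2 fold change of 1.19 ± 0.13 (SE; adjusted p = 4.67e-06). In control cultures Ncaph lay between 8.43 and 10.6 CPM (median 9.1), against 16.6 to 19.8 CPM (median 18.0) in mimic cultures, and the log2 fold change was 0.98 ± 0.06 (SE; adjusted p = 7.02e-09). Mki67, the Ki-67 antigen, coats mitotic chromosomes and serves as the common marker of cycling cells. The level of Mki67 had a median of 58.9 CPM in control (54.1 to 68.9) and 118.2 CPM in mimic cultures (112.9 to 122.1), a rise of 0.97 ± 0.05 on the log2 scale (SE; adjusted p = 7.4e-10). The highest control levels per length of all 59 genes were those of Top2a, Smc4 and Ncapd2, at 8.84 ± 0.761, 7.59 ± 1.4 and 6.87 ± 0.403 CPM per kb (SD, n = 6). Top2a encodes the topoisomerase that untangles sister chromatids. Top2a ranged from 70.9 to 87.9 CPM (median 78.4) in control and from 149.0 to 155.6 CPM (median 151.3) in mimic cultures, a log2 fold change of 0.93 ± 0.05 (SE; adjusted p = 7.4e-10). Smc4 and its partner Smc2 form the ATPase core shared by condensins I and II. In control cultures Smc4 lay between 30.7 and 46.5 CPM (median 41.5), against 59.7 to 66.7 CPM (median 62.6) in mimic cultures, and the log2 fold change was 0.66 ± 0.09 (SE; adjusted p = 9.17e-05). Smc2 rose by 0.62 ± 0.07. Ncapd2 is a further subunit of condensin I. The level of Ncapd2 had a median of 42.7 CPM in control (40.0 to 47.5) and 72.6 CPM in mimic cultures (66.4 to 75.7), a rise of 0.74 ± 0.04 on the log2 scale (SE; adjusted p = 3.1e-09). Ncapg alone in this class at least doubled.

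Among the 4 cytokinesis genes the median was 0.96, and 2 at least doubled. Prc1 bundles the microtubules of the central spindle. Prc1 ranged from 18.9 to 22.1 CPM (median 20.4) in control and from 39.5 to 44.6 CPM (median 41.5) in mimic cultures, a log2 fold change of 1.02 ± 0.05 (SE; adjusted p = 2.37e-10). Ect2 activates RhoA, and with it the contractile ring. In control cultures Ect2 lay between 7.93 and 12.7 CPM (median 10.8), against 20.9 to 23.1 CPM (median 21.6) in mimic cultures, and the log2 fold change was 1.00 ± 0.08 (SE; adjusted p = 4.38e-08). Racgap1 is the centralspindlin subunit that recruits Ect2. The level of Racgap1 had a median of 27.1 CPM in control (26.0 to 28.1) and 51.8 CPM in mimic cultures (48.8 to 53.2), a rise of 0.92 ± 0.04 on the log2 scale (SE; adjusted p = 6.81e-11). In these 3 genes the groups were apart. Anillin (Anln), a scaffold of the contractile ring, rose by 0.63 ± 0.05.

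Both transcription factors of the list are themselves activators of late cell cycle genes. Foxm1 ranged from 12.3 to 16.3 CPM (median 14.0) in control and from 28.9 to 35.1 CPM (median 32.0) in mimic cultures, a log2 fold change of 1.19 ± 0.07 (SE; adjusted p = 2.58e-09). Mybl2 encodes B-Myb, which joins the MuvB complex. In control cultures Mybl2 lay between 2.72 and 4.14 CPM (median 3.34), against 5.62 to 6.75 CPM (median 6.02) in mimic cultures, and the log2 fold change was 0.85 ± 0.09 (SE; adjusted p = 2.35e-06). Mimic and control libraries did not overlap for either factor.

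**Figure D4:**
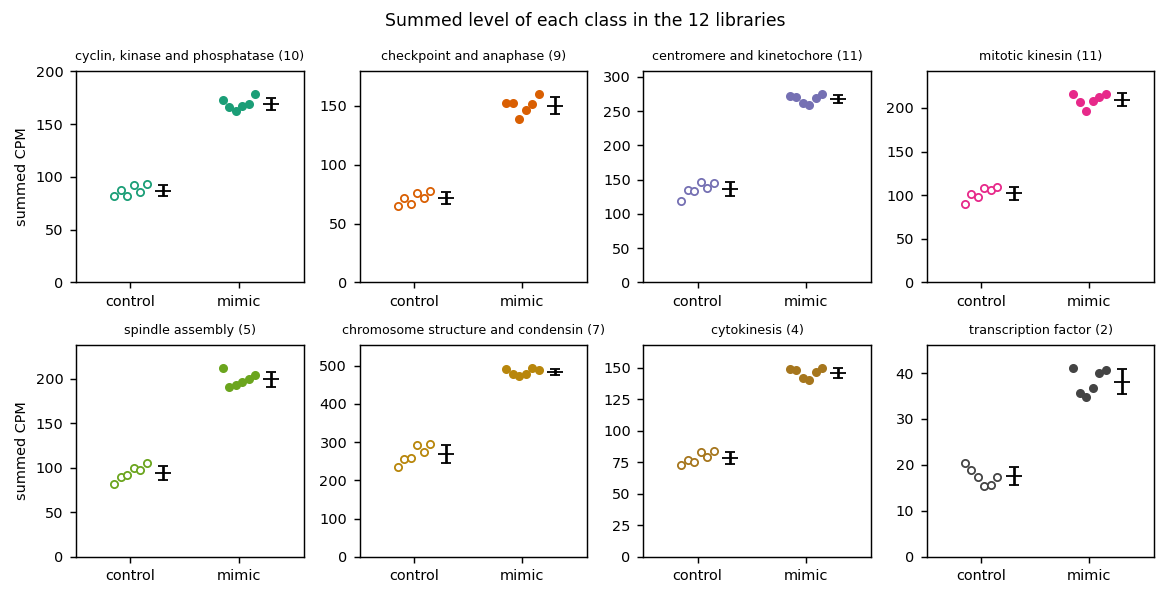
Summed CPM of each class (y axis, from 0) in the 6 control (open circles) and 6 mimic (filled circles) libraries, with the number of genes in parentheses and the mean ± SD in black. In all 8 panels every mimic library lies above every control library, for example 64.8 to 77.6 against 138.5 to 159.8 CPM for checkpoint and anaphase genes.

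Replicate cultures varied together across most of the list. In control libraries 4 and 6, 50 of the 59 genes lay above their own control mean, with median deviations of 0.09 and 0.12 on the log2 scale. Only 12 lay above it in control 3 and 16 in control 1, where the median deviation was -0.15. The 2 transcription factors went the other way, with medians of 0.24 in control 1 and -0.23 in control 4. Over all tested genes the median deviation of the control libraries lay between -0.002 and 0.005. TMM scaling and centring on the group mean keep that median small. The share of all tested genes above their own mean was not computed. Among mimic libraries the count ran from 10 of 59 in mimic 3 to 51 in mimic 6, with median deviations of -0.06 and 0.05. The coefficient of variation of a gene had a median of 10.5% between control and 5.7% between mimic libraries. With control libraries 1 and 2 both left out, an alternative chosen after seeing the data, all 59 genes were again called higher and their median log2 fold change was 1.00.

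Other genes of the same pathway did not all move with the list. Of 127 further genes, all tested, 69 were called higher (54.3%, against 11.5% of all tested genes) and 3 lower (against 10.7%), and their median log2 fold change was 0.23. Among 22 further genes of mitotic entry and cytokinesis 19 rose (86.4%), with a median of 0.86. Those with the largest changes at a mean of at least 100 counts were Cdca3 (1.24 ± 0.06), an adaptor for destruction of the entry inhibitor Wee1, and Pbk (1.14 ± 0.07), a mitotic kinase. Among 32 further kinetochore genes 22 rose (68.8%) and none fell, with a median of 0.57. Cenpn, which binds Cenpa nucleosomes, was among them (1.09 ± 0.07). Of 22 centrosome and spindle pole genes 13 rose (59.1%, median 0.26), with Nek2, a kinase that splits the centrosomes, at 0.95 ± 0.07 and Cep55, a protein of abscission, at 0.94 ± 0.09.

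Lists of complexes that cells also use outside mitosis had smaller medians than the 59 genes. So did the further lists above, and none of these differences was tested. Of 16 genes of the anaphase-promoting complex and its regulators 2 were called higher (12.5%, near the 11.5% of all tested genes) and 1 lower, with a median of 0.02. One of the 2 was Fbxo5 (Emi1), an inhibitor of the complex whose level peaks in the cycle, with 1.03 ± 0.09. The other was the subunit Cdc26, with 0.15 ± 0.05. Cohesin genes gave 4 of 13 called higher (30.8%) and none lower (median 0.13), among them Esco2 (0.98 ± 0.15) and Cdca5 (0.94 ± 0.09), which act on cohesin during replication. Beside the condensin genes of the list, Ncapg2 and Ncapd3 of condensin II rose by 0.68 ± 0.06 and 0.16 ± 0.04, and 2 of 3 were called. In the PP2A and Greatwall group 1 of 8 rose (12.5%, again near the share of all tested genes), the Greatwall kinase Mastl (0.67 ± 0.08), and 1 fell, Arpp19 (-0.23 ± 0.07). Of 11 genes of the DREAM and MuvB complexes 6 rose (54.5%) and 1 fell (median 0.19), with Lin9 at 0.57 ± 0.08 and Rbl1 at 0.54 ± 0.08.

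A list of kinesin genes outside the 59, most of them for motors of axonal or ciliary transport, was set beside the mitotic motors. The list also holds Kif2a and Kif2b, microtubule depolymerases related to Kif2c that act on the spindle too, of which Kif2a had a log2 fold change of -0.01 (adjusted p = 0.957) and Kif2b no counts. Of 20 listed 19 were tested, and 1 was called higher (5.26%) and 7 lower, with a median log2 fold change of -0.04. The shares of all tested genes were 11.5% higher and 10.7% lower. The largest changes were those of the ciliary kinesins Kif27 (-0.48 ± 0.08) and Kif9 (-0.43 ± 0.06). Of 3 further kinesins, counted above with the centrosome and the mitotic entry genes, Kif18a, which works at kinetochore microtubules, rose by 0.48 ± 0.11, Kif24 rose by 0.23 ± 0.07, and Kif13a was not called (-0.08 ± 0.04). In the same cultures all 11 mitotic kinesins of the list rose, by 0.63 to 1.21.

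DNA replication genes, which act earlier in the cycle, rose as well and by less at the median. Of 42, all tested, 35 were called higher (83.3%, against 11.5% of all tested genes) and none lower, with a median change of 0.53 on the log2 scale where the mitotic genes had 1.03. The difference between the lists was not tested. Mcm3 and Mcm5, subunits of the replicative helicase, rose by 1.04 ± 0.06 and 0.99 ± 0.05. Summed over the 42 genes, the level was 543.8 to 575.2 CPM in control and 760.3 to 817.9 CPM in mimic libraries.

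**Figure D5:**
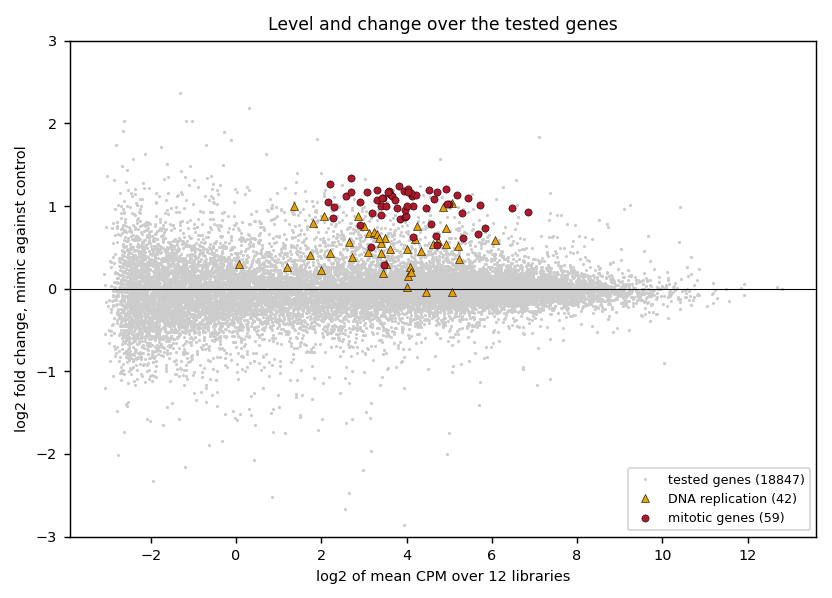
Log2 fold change, mimic against control (y axis), against log2 of the mean CPM over the 12 libraries (x axis) for 18847 tested genes (grey), 42 DNA replication genes (triangles) and 59 mitotic genes (circles). The mitotic genes form a band between 0.29 and 1.34 with no member below 0, above most replication genes, whose median is 0.53.

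Markers of the cell types that the culture could hold are given beside the shares of all tested genes called higher (11.5%) and lower (10.7%). Neuron markers were present at a summed 10125 to 10895 CPM in control and 10459 to 10842 CPM in mimic libraries, with 3 of 16 called higher (18.8%) and 2 lower, Tubb3 (-0.32) and Stmn2 (-0.20) changing most among those called. Astrocyte and radial glia markers summed to 7671 to 8094 CPM in control and 8567 to 9071 CPM in mimic libraries, with 9 of 16 called higher (56.2%) and 3 lower. The glutamate transporter Slc1a3 rose (0.99) and the filament protein Gfap fell (-0.90). Oligodendrocyte precursor markers summed to 776.5 to 1166 CPM in control and 1184 to 1381 CPM in mimic libraries. Control 1 alone gave the 1166 CPM, and the next highest control library had 825.3 CPM. Of these markers 7 of 13 were called higher (53.8%) and 1 lower, those called higher including Olig1 (0.96) and Olig2 (0.71). Neural progenitor markers summed to 792.5 to 1054 and 1019 to 1084 CPM, with 6 of 12 called higher (50.0%) and none lower, among them Egfr (0.89).

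Microglia markers summed to 25.3 to 29.5 CPM in control and 23.6 to 39.4 CPM in mimic libraries, with none of 12 called higher and 3 lower (C1qa, C1qb and C1qc). Mesenchymal and mural markers summed to 225.8 to 296.4 and 127.9 to 253.5 CPM, with 3 of 12 called higher and 3 lower, Acta2 (-2.86) and Tagln (-1.74) most. Mimic 4 alone gave the 253.5 CPM, and the next highest mimic library had 195.5 CPM. Endothelial markers summed to 47.8 to 69.7 and 29.5 to 52.2 CPM, with 2 of 7 tested called lower (Kdr, -0.64, and Flt1), and the defining marker Cldn5 had at most 1 count in any library and was not tested. The part of these cell types in the rise of the mitotic genes was not tested.

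The seed of the mimic had matches in a minority of the mitotic genes. In the longest 3 prime UTR of each gene (GENCODE M21), a match to bases 2 to 8, or to bases 2 to 7 followed by A, was present in 9 of 59 genes (15.3%) and in 21.9% of 15082 tested genes with a 3 prime UTR. The median 3 prime UTR length was 662 bases for the mitotic genes and 1173 bases for the tested genes. The 9 genes were Aurkb, Ccna2, Cdc25b, Cdk1, Incenp, Kif14, Mad2l1, Nusap1 and Plk1. All 9 were called higher, with a median log2 fold change of 0.84, against 1.06 for the other 50, a difference that was not tested. Sites that match bases 2 to 8 and are followed by A were present in 3 genes and are shown with the site in capitals.
Aurkb: aacacccaTGCACTGActtttaag
Kif14: gcgttttaTGCACTGAacactgta
Mad2l1: atccccaaTGCACTGAgttttcag
They lie in the 3 prime UTRs at chr11:69051462-69051485, chr1:136529896-136529919 and chr6:66546207-66546230 (GRCm38, plus strand). The seed of the control oligonucleotide had a match in 1 of the 59 genes (1.69%), Kif14, and in 4.42% of the tested genes.

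Some counts can gain or lose reads shared with a neighbour or a copy. The sources used here state neither whether counting used the strand nor how shared reads were assigned. At least 10% of the exon bases of 7 genes lay within exons of a gene on the other strand. The widest such overlap was that of Kif20a with Cdc23 (29.3%), and Cdc23, at a mean of 2753.6 counts, did not pass the test (log2 fold change 0.04, adjusted p = 0.496). Ube2c overlapped Tnnc2 by 22.77%, but Tnnc2 had no counts. Kif4 overlapped Pdzd11 by 15.09%, Ncapg overlapped Lcorl by 13.36%, Cdc25c overlapped Gm3550 by 12.67%, Ccna2 overlapped Exosc9 by 12.49% and Prc1 overlapped Rccd1 by 11.08%. Kifc1 shared 38.59% of its 50-base words with Kifc5b, a near copy with a mean of 83.4 counts, so its value is uncertain. Copies of Ccnb1 shared up to 18.94% of its words, with at most 0.7 mean counts where they were counted. Mybl2 shared 18.56% with Gm3320, for which no count was used here, and Cdc20 shared 10.32% with Gm7856, at a mean of 0.2 counts. Plk1 shared 6.56% with Plk-ps1, which had a mean of 44.5 counts.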

How the data were processed

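RNA of 12 cultures, 6 per group, was sequenced as 50-base single-end reads from poly(A) libraries. Per the labels and the study's methods, the authors checked reads with FastQC 0.11.5, aligned them to mm10 with STAR 2.5.2b and made the deposited raw counts per Ensembl gene with featureCounts (Subread 1.5.1), and the strand setting is not given in the sources used here. The authors also deposited a table of normalized signal for 18289 genes, which equals these counts divided by 1 factor per sample (0.673 to 1.26), and it served 1 alternative only. Groups were taken from the sample labels. Gene names, exons and 3 prime UTRs came from GENCODE M21, which named 48349 of the 48709 genes.

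Genes that reached 5 counts in 6 or more libraries were tested with edgeR 4.0.16 in R 4.3.3 (quasi-likelihood F-test, robust, TMM, no covariate), and p-values were adjusted by Benjamini-Hochberg over all 18847 tested genes. The script was tested on simulated data. All adjusted p-values in the text are from this fit unless another tool is named. Alternatives were median-ratio factors, library totals alone, DESeq2 1.42.0 (the study's tool), no filter, a filter of 50 counts, a minimum fold change of 1.2, a replicate block, limma 3.58.1 on log2 of the deposited signal plus 1, and each library left out in turn. Library totals of 20018234 to 37149112 counts set the precision.

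The genes and lists were chosen with earlier results of these data known. Full values are given for the 3 members of each class with the largest absolute change and a mean of at least 100 counts, and for the 3 with the highest and lowest control level per length. Of each other list, the 2 genes with the largest change past the threshold and a mean of at least 100 counts are named, except that 2 of them are not reported here. No set test was run.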

Additional observations from a re-analysis of the deposited data

Results flagged for a closer look

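Of 118 groups of 6 libraries (59 genes in 2 groups), 7 held 1 library whose distance from the rest was above Dixon's 95% limit for 6 samples, and chance gives about 5.9. In the mimic group, Bub1b, a checkpoint kinase relative, was low in library 3 at 19.8 CPM, with 24.5 to 25.6 CPM in the others. Kif22, a chromosome-bound kinesin, was low in the same library at 18.2 CPM, with 20.8 to 21.6 CPM in the others. Pttg1, securin, was high in mimic 6 at 15.5 CPM, with 12.3 to 13.4 CPM in the others, and Hmmr, a spindle pole protein, was high in mimic 1 at 25.3 CPM, with 21.5 to 22.9 CPM in the others. In the control group, the kinetochore motor Cenpe was low in library 1 at 10 CPM, with 15.1 to 16.1 CPM in the others, and the condensin subunit Smc2 was low there at 24.0 CPM, with 31.5 to 35.7 CPM in the others. Control 1 was also the shallowest library, and the part of depth was not tested. Nuf2 of the Ndc80 complex was low in control 2 at 9.14 CPM, with 9.9 to 10.2 CPM in the others. In all 7 cases the stray library stayed on its own group's side, which follows from the separation of the groups in all 59 genes.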

How the results depend on the processing

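In every alternative run, all 59 genes kept their positive direction, and the median log2 fold change lay between 1.00 and 1.06. All 59 were called higher in each setting except the test against a minimum fold change of 1.2, in which 58 were, and Cdc25b was not (adjusted p = 0.966 by edgeR's glmTreat). That test, which asks for more than a difference from 0, called 1035 genes of all tested, against 4182 in the reported fit. Leaving out 1 library at a time gave 59 genes called higher, 0 lower and medians of 1.01 to 1.06, with 3494 to 5150 genes called among all tested. The highest count was without control 1 (2697 higher and 2453 lower). Without control 1 and 2 together, 3058 were higher and 2892 lower. With the replicate number as a replicate block, 59 genes were called higher, the median was 1.03 and 3659 genes were called in all. The deviations of same-numbered libraries correlated at -0.038 to 0.093, within the range of other pairs (-0.173 to 0.145), so the numbers were not taken to pair the cultures, and the block changed no call among the 59. Without a filter on low counts, 5.95% of 33540 genes were called higher. The 59 genes had 134.7 to 3493.5 mean counts, and the part of depth in their calls was not tested. Expression was read in bulk at 1 time, and reads of overlapping genes and near copies could not be separated.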
